A study of Mus musculus with 15 samples.

Results

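The metallothionein genes Mt1 and Mt2 are described here across sorbitol treatment and LIF withdrawal in mouse embryonic stem cells, beside Mtf1, which encodes their zinc-sensing transcription factor, and Slc30a1, which encodes the zinc exporter ZnT1. These 4 genes of the 21516 listed were read by symbol from 4 count tables. Mt1 and Mt2 were chosen on their scaled counts in these same libraries, so their levels and differences are a description and carry no test. Mtf1 and Slc30a1 were taken for their roles, and all 4 genes had enough counts to enter the fit over 9390 genes.

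All cells were of the REX-1 RFP line, embryonic stem cells in which the promoter of Rex1 drives a red fluorescent protein, and each group was cultured for 72 h. Groups with sorbitol at 200, 250 or 300 mM kept LIF (leukaemia inhibitory factor, a cytokine used to maintain mouse embryonic stem cells). The ND group (normal differentiation) grew without LIF and without sorbitol, and the NS group (normal stemness) kept LIF without sorbitol. Each of the 5 groups held 3 libraries, given as biological triplicates, made with a 3' tag protocol in which a transcript yields about the same number of tags whatever its length. Whether the line is a clone was not given in the sources used here.

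Metallothioneins are small cysteine-rich proteins that bind zinc and copper and buffer the free metal in the cytosol. MTF1 binds metal response elements, short DNA motifs in the promoters of metallothionein genes and of Slc30a1, when zinc rises, so transcription of these genes is widely used as a readout of cellular zinc. Heavy metals, oxidants and glucocorticoids are also known inducers of Mt1 and Mt2.

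Total counts ran from 968556 to 2289528 per library, with 1872918 to 2289528 in replicate 1 of each group and 968556 to 1229075 in replicates 2 and 3. Libraries NS 1, NS 2 and ND 2 stood apart in the 78 ribosomal protein genes: relative to the mean of all 15 libraries, their median was -0.49 in NS 1, -0.43 in NS 2 and 0.83 in ND 2 on the log2 CPM scale, against -0.12 to 0.15 in the other 12. CPM is the count per 1000000 of its library's TMM-scaled total. The deposited Ensembl column gave Mt1, Mt2 and Mtf1 the identifiers of Mtnr1a, Mtnr1b and Meltf. The rows were therefore read by symbol. Mtnr1a and Mtnr1b, melatonin receptor genes, had rows of their own at 0 counts in all 15 libraries, and Mfi2, the older symbol of Meltf, had a row with 0 to 5 counts per library. Slc30a1 carried its own identifier.

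The promoters of Mt1, Mt2 and Slc30a1 are shown because the members share a known regulator that reads their sequence. Each window runs from 250 bases before to 30 after the annotated start, on the plus strand, from RefSeq on build GRCm38.p6, and capitals mark matches to the core of the metal response element (TGCACNC or TGCGCNC, either strand).
Mt1 at chr8:94178839-94179118: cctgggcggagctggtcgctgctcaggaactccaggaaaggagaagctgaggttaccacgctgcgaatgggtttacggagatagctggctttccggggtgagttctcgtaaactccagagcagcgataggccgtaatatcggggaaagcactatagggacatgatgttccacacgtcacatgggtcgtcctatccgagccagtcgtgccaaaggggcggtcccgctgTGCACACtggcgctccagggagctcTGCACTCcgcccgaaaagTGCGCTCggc
Mt2 at chr8:94172368-94172647: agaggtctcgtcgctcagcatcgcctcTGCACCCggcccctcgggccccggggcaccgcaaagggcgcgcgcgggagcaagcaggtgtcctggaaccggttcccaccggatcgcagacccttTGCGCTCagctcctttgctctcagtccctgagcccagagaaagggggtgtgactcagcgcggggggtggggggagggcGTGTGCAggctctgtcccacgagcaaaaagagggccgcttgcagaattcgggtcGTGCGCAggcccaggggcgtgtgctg
Slc30a1 at chr1:191906531-191906810: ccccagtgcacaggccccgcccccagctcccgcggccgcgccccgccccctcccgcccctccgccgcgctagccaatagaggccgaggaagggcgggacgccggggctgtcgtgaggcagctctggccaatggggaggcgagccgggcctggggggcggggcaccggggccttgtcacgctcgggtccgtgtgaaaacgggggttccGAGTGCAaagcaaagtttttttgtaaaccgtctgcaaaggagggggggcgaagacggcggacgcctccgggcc

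The Mt1 window held 3 matches, all on the plus strand, the Mt2 window 4, of which 2 lay on each strand, and the Slc30a1 window 1 on the minus strand. In Mt1 they began 23 bases before the annotated start and at bases 3 and 21 after it. In Mt2 they began 223, 128 and 50 bases before the annotated start and at base 5 after it. No matches overlapped within a window. Of the 32851 promoter windows in the table, 24.1% held at least 1 match, 1.73% at least 3 and 0.405% at least 4. The Mtf1 window on chromosome 4 held 0 matches. A match to the antioxidant response element core (TGACNNNGC, either strand), bound by NRF2, began 79 bases before the start in Mt2 and 82 before it in Slc30a1, and 11.5% of all windows held at least 1. None was found in the windows of Mt1 and Mtf1. These matches describe letters in the windows and were not tested as binding sites. Bases outside the windows were not searched, so matches further from the annotated start on either side are not counted. The last Mt1 match, at base 21, lay close to the end of its window. The counts therefore do not rank the promoters of Mt1 and Mt2. They also do not show that Mt1 lacks an antioxidant response element. Whether the annotated starts are those used in these cells was not tested.

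**Figure D1:**
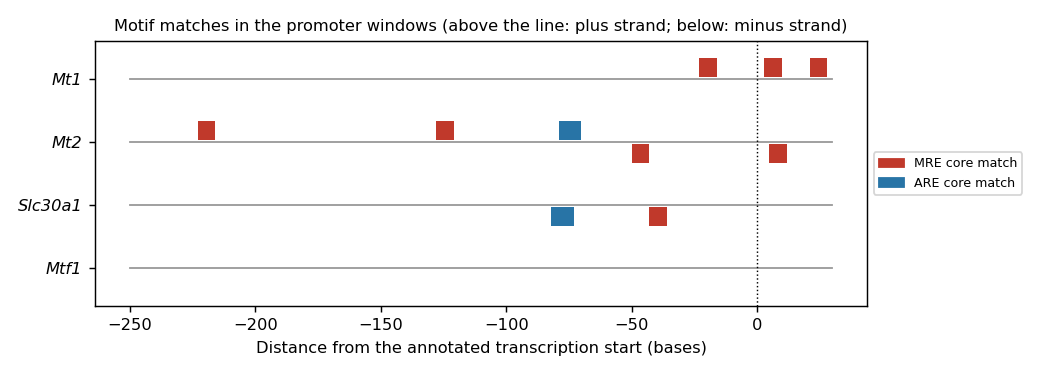
Positions of motif matches in the 4 promoter windows, as distance in bases from the annotated transcription start (dotted line). Red bars are matches to the metal response element core (3 in Mt1, 4 in Mt2, 1 in Slc30a1 and 0 in Mtf1), blue bars are matches to the antioxidant response element core (1 each in Mt2 and Slc30a1), and bars above or below a line lie on the plus or minus strand.

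Both metallothionein genes were lower in every sorbitol library than in every library without sorbitol. Mt1 stood at 182, 214 and 202 CPM in the 200 mM libraries (replicates 1, 2 and 3), at 104, 138 and 76.0 CPM at 250 mM and at 128, 80.9 and 83.8 CPM at 300 mM. Its level was 1057, 883 and 986 CPM in ND and 581, 520 and 858 CPM in NS. The 3 sorbitol groups thus lay below both groups without sorbitol with no overlap, and the ND libraries lay just above the NS libraries.

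Relative to NS, Mt1 was at 30.5% at 200 mM, 16.2% at 250 mM and 15% at 300 mM (log2 differences of -1.71, -2.62 and -2.74 in the fit over all genes). In ND it was at 149% of NS, a log2 difference of 0.58. The means were 199, 106 and 97.5 CPM at 200, 250 and 300 mM, 976 CPM in ND and 653 CPM in NS (n = 3 each), and the coefficient of variation over the 3 libraries was 8.29%, 29.4% and 27% at the 3 doses, 8.97% in ND and 27.6% in NS.

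Mt2, the more abundant of the pair by tag count, stood at 788, 528 and 654 CPM in the 200 mM libraries, at 709, 623 and 403 CPM at 250 mM and at 650, 484 and 420 CPM at 300 mM. In ND it had 3778, 2511 and 3206 CPM, and in NS 1844, 1657 and 3184 CPM. All 9 sorbitol libraries were lower than all 6 others, while ND and NS overlapped, since NS 3 was higher than ND 2.

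The Mt2 level at 200, 250 and 300 mM was 29.5%, 26% and 23.3% of that in NS (log2 differences of -1.76, -1.94 and -2.10), and in ND it was 142% of that in NS (0.51). Group means were 657, 578 and 518 CPM at the 3 doses, 3165 CPM in ND and 2228 CPM in NS. By count Mt2 ranked between 192 and 382 among all genes in the sorbitol libraries, between 20 and 54 in ND and between 18 and 57 in NS. Mt1 ranked between 905 and 2573 in the sorbitol libraries, between 123 and 187 in ND and between 133 and 307 in NS.

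Separation of this kind was not rare among the tested genes. All libraries were lower than all NS libraries for 6.28% of the 9390 genes at 200 mM, 14.1% at 250 mM and 14.7% at 300 mM. All 9 sorbitol libraries lay below all 3 NS libraries for 3.76% of genes, and below all 6 NS and ND libraries for 1.61%. All ND libraries lay above all NS libraries, as for Mt1, for 4.08%. Since the members were chosen on these values, nothing is read from those shares, and the comparisons with NS all use the same 3 NS libraries. In these bulk samples, fewer cells expressing the genes and less RNA per cell cannot be told apart.

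**Figure D2:**
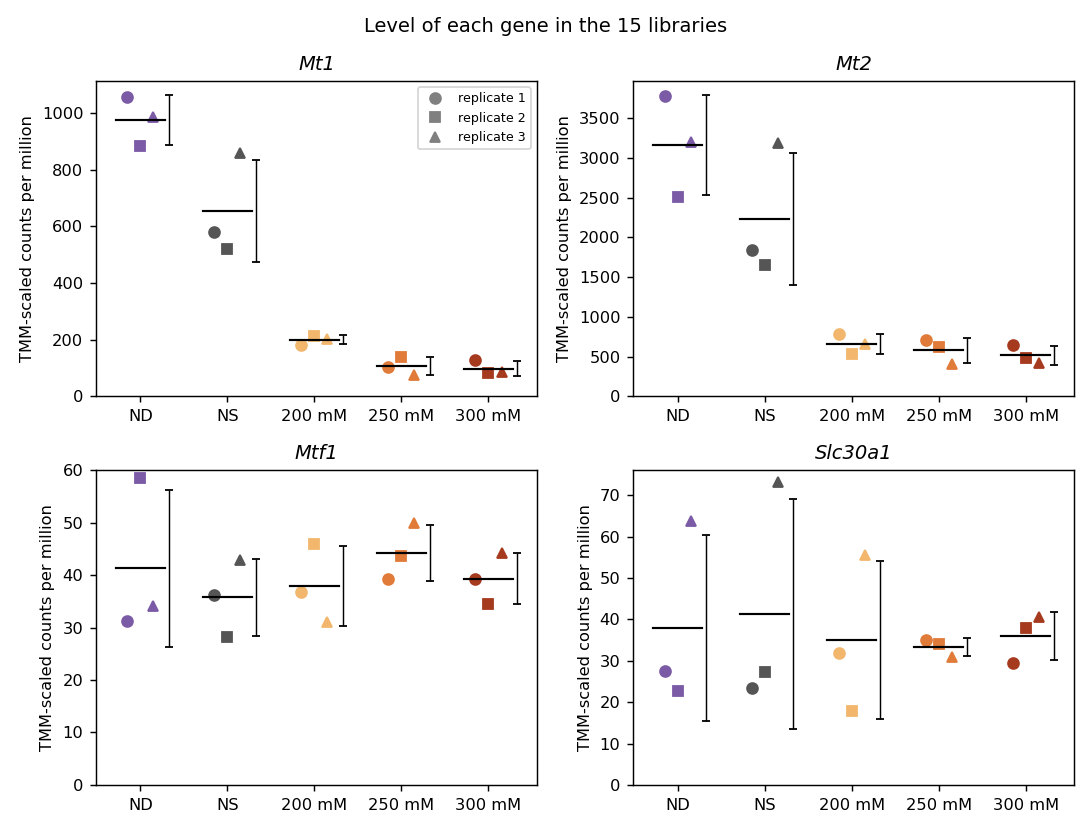
Level of Mt1, Mt2, Mtf1 and Slc30a1 (CPM after TMM scaling, linear axes from 0) in each of the 15 libraries. Symbols are replicates, horizontal bars group means and error bars the SD (n = 3). Mt1 and Mt2 sit at 76.0 to 214 and 403 to 788 CPM in the sorbitol libraries, below all ND and NS libraries, while the groups overlap for Mtf1 and Slc30a1.

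The dose shape differed in appearance between the metallothioneins. For Mt1 the mean log2 level at 250 mM was 0.95 lower than at 200 mM, with all 250 mM libraries below all 200 mM libraries, and from 250 to 300 mM the mean difference was -0.11 with overlapping libraries. Between 300 and 200 mM the fitted log2 difference was -1.02 for Mt1, with no overlap, as in 7.85% of tested genes, and -0.34 for Mt2, with overlap. Mt2 libraries also overlapped between 200 and 250 mM (mean log2 difference -0.20) and between 250 and 300 mM (-0.14). In order of group means, both genes ran from 300 mM as the lowest through 250 mM, 200 mM and NS to ND, and neighbours in that order overlapped at 250 and 300 mM for Mt1, and at all 3 doses and between ND and NS for Mt2.

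The number of Mt1 counts per Mt2 count, which needs no scaling between libraries, was 0.231, 0.406 and 0.308 at 200 mM, 0.146, 0.222 and 0.189 at 250 mM and 0.197, 0.167 and 0.200 at 300 mM. It was 0.280, 0.352 and 0.308 in ND and 0.315, 0.314 and 0.270 in NS. The libraries at 250 and 300 mM lay below all ND and NS libraries, and those at 200 mM spanned the NS range. The means were 0.315 ± 0.0879, 0.185 ± 0.0378 and 0.188 ± 0.0179 at 200, 250 and 300 mM, 0.313 ± 0.0362 in ND and 0.299 ± 0.0259 in NS (SD, n = 3 each). The ratio comes from the same counts that chose the genes and was not tested.

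**Figure D3:**
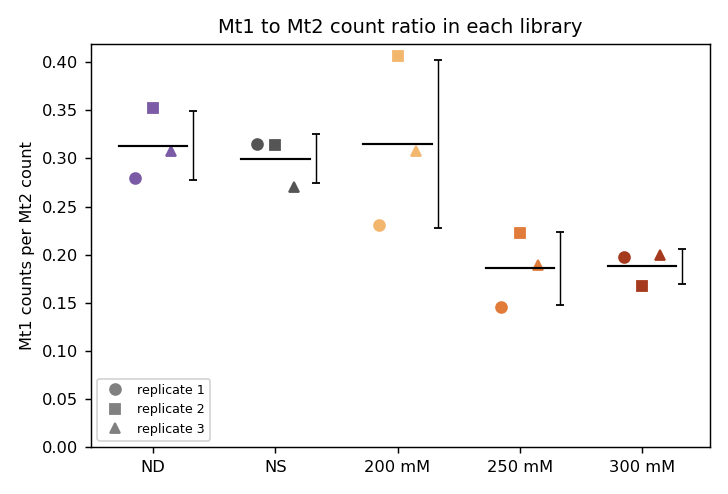
Mt1 counts per Mt2 count in each library (linear axis from 0), with group means and SD (n = 3) and a symbol for each replicate number. The 6 libraries at 250 and 300 mM lie between 0.146 and 0.222, below the 0.270 to 0.352 of the ND and NS libraries.

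Since all sorbitol libraries lay below all NS libraries, both genes had to be lower in 3 of 3 same-numbered pairs at each dose. The differences by replicate number are a description, and the number was taken to pair only the 200 mM and NS libraries. At 300 mM the log2 CPM difference of Mt1 from the NS library of the same number was -2.18, -2.68 and -3.35 for replicates 1, 2 and 3, and that of Mt2 was -1.50, -1.78 and -2.92. At 200 mM the differences were -1.67, -1.28 and -2.09 for Mt1 and -1.23, -1.65 and -2.28 for Mt2. Those of replicate 3 were the lowest for both genes at every dose, and NS 3 was the NS library with the highest Mt1 and Mt2. For ND minus NS the values were 0.86, 0.76 and 0.20 for Mt1 and 1.03, 0.60 and 0.01 for Mt2.

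NS 1 and NS 2, the NS libraries with low ribosomal protein expression, were also those with the lower metallothionein levels. Without NS 1, NS 2 and ND 2, an alternative chosen after the data were seen, the log2 differences from the remaining NS library were -2.10, -3.02 and -3.10 for Mt1 at 200, 250 and 300 mM and -2.27, -2.46 and -2.60 for Mt2. For ND minus NS they were 0.28 for Mt1 and 0.16 for Mt2. NS 3 had the highest Mt1 and Mt2 of the NS libraries, so leaving out NS 1 and NS 2 had to lower the sorbitol differences and the ND difference, and the values rest on 1 NS library.

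Mtf1 did not pass the threshold (adjusted p under 0.05 over 9390 genes, edgeR) in any comparison. It stood at 36.8, 46.0 and 31.0 CPM at 200 mM, 39.3, 43.7 and 49.9 at 250 mM and 39.2, 34.5 and 44.2 at 300 mM. It had 31.2, 58.5 and 34.2 CPM in ND and 36.3, 28.2 and 42.8 CPM in NS, so all groups overlapped with NS. The log2 change from NS was 0.08 ± 0.29 (SE) at 200 mM, 0.30 ± 0.28 at 250 mM, 0.13 ± 0.28 at 300 mM and 0.18 ± 0.29 in ND. Adjusted p-values of edgeR's quasi-likelihood test were 0.959, 0.553, 0.824 and 0.950 in that order. Across the 3 doses the 95% intervals ran from -0.53 at the lowest bound to 0.90 at the highest.

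Slc30a1 did not pass in any comparison either, and its libraries split by replicate number more than by condition. Its level was 31.9, 17.8 and 55.5 CPM at 200 mM, 35.1, 34.1 and 30.9 at 250 mM and 29.4, 37.9 and 40.5 at 300 mM, against 27.5, 22.7 and 63.7 in ND and 23.4, 27.3 and 73.2 in NS. Replicate 3 was the highest library in the 200 mM, 300 mM, ND and NS groups, and the lowest at 250 mM. The coefficient of variation was 67.1% in NS, 59.1% in ND and 54.4% at 200 mM, against 6.61% at 250 mM and 16.2% at 300 mM.

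The log2 change of Slc30a1 from NS was -0.21 ± 0.47 (SE) at 200 mM, -0.28 ± 0.47 at 250 mM, -0.19 ± 0.47 at 300 mM and -0.10 ± 0.47 in ND (edgeR adjusted p of 0.930, 0.756, 0.851 and 0.983). The 95% interval reached from -1.27 to 0.70 at 250 mM, so both falls and rises within it are compatible with these libraries. The lack of a call does not show that Slc30a1 was unchanged. The sign turned without NS 3, with changes of 0.49, 0.40 and 0.50 at 200, 250 and 300 mM and 0.60 in ND. It also turned at 200 mM without replicate 2 of that dose and in ND without ND 1 or ND 2. At 300 mM relative to 200 mM the changes were 0.06 ± 0.28 for Mtf1 and 0.02 ± 0.47 for Slc30a1 (adjusted p of 0.980 and 0.995).

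Neither gene reached an unadjusted p under 0.05 in any of the 5 comparisons, nor a call by DESeq2. Over all 9390 tested genes, edgeR called 0.586% at 200 mM (0.405% higher and 0.181% lower), 4.47% at 250 mM (2.01% higher and 2.46% lower), 7.89% at 300 mM (3.23% higher and 4.66% lower) and 0.0319% in ND, each relative to NS, and 0.0213% at 300 mM relative to 200 mM. With library totals in place of TMM, the split at 250 mM was 205 higher and 167 lower genes, in place of 189 higher and 231 lower. An unadjusted p under 0.05 was reached by 11% of the genes at 200 mM, 21.9% at 250 mM, 24.7% at 300 mM and 6.39% in ND, and by 9.3% for 300 against 200 mM. Without NS 3 the adjusted threshold was passed by 1.54%, 14.6% and 15.4% of 9711 genes at 200, 250 and 300 mM. The lists that follow are read against these shares, and they were drawn up with earlier results of these data known.

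Of the 13 calls described in the lists and among the neighbours, a gene at 1 dose each, 12 were lost without NS 1, NS 2 and ND 2 together (adjusted p from 0.0933 to 0.607), a fit that leaves 1 NS library. The call kept was that of the heat shock gene Hspb1 at 300 mM (log2 change 1.78, adjusted p = 0.0451).

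Of the other mouse metallothioneins, Mt4, known from stratified epithelia, fell at 300 mM, and Mt3, known from brain, was too rare to be tested. Mt4 had 2.72, 1.68 and 6.45 CPM at 300 mM, against 17.2, 19.1 and 20.5 CPM in NS, with no overlap. The log2 change was -2.41 ± 0.52 (SE; edgeR adjusted p = 0.0118). At 200 mM it was -1.37 ± 0.48 (adjusted p = 0.257), at 250 mM -1.42 ± 0.47 (0.0901) and in ND -0.47 ± 0.45 (0.892). The 300 mM value rests on 14 counts, against 80 in NS, and the call was lost without replicate 1 or without replicate 2 at 300 mM (adjusted p from 0.0548 to 0.0693). Without replicate 3 at 300 mM the change was -3.00. Mt3 had 3, 0 and 0 counts at 200, 250 and 300 mM, 9 in ND and 6 in NS, over 3 libraries each.

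Mt4, Mt3, Mt2 and Mt1 lie next to each other on chromosome 8, with no other protein-coding gene between Mt2 and Mt1 in RefSeq. Of the 5 nearest protein-coding genes on each side of the Mt2 and Mt1 pair, looked up after the data were seen, 5 were tested. At 300 mM 2 of them fell, Mt4, given above, and Herpud1, a gene of endoplasmic reticulum protein degradation. Of all tested genes 4.66% were called lower at that dose, and whether the locus falls as a region was not tested. Herpud1 stood at 124 ± 25.2 CPM at 300 mM and 234 ± 10.3 CPM in NS (SD, n = 3 each), a log2 change of -0.92 ± 0.23 (SE; edgeR adjusted p = 0.0237), which was lost without NS 1, NS 2 or replicate 2 or 3 at 300 mM (adjusted p from 0.0692 to 0.120). Ogfod1, which encodes a ribosomal prolyl hydroxylase, was at 0.76 ± 0.29 (adjusted p = 0.111) and did not pass, nor did Nudt21 (0.90 ± 1.01) and Cpne2 (-0.37 ± 0.50). At 250 mM Ogfod1 was at 0.92 ± 0.28 (adjusted p = 0.0695).

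Of the 8 tested zinc exporter genes of the SLC30 family (10 listed), 1 fell at 250 mM and at 300 mM and 0 rose. This was Slc30a3, which encodes ZnT3, known for loading zinc into synaptic vesicles. It had 4.71, 9.53 and 7.92 CPM at 250 mM and 10.3, 9.27 and 5.53 CPM at 300 mM, against 29.1, 28.2 and 19.6 CPM in NS. The log2 change was -1.83 ± 0.42 (SE; edgeR adjusted p = 0.0244) at 250 mM and -1.58 ± 0.42 (0.0303) at 300 mM. Each call was lost when any 1 of the libraries compared other than NS 3 was left out (adjusted p from 0.0623 to 0.121 at 250 mM and from 0.0579 to 0.114 at 300 mM). The median change of the 8 genes was -0.03, 0.12 and 0.01 at 200, 250 and 300 mM and 0.04 in ND, beside 0.01, -0.01, -0.01 and -0.01 over all tested genes. At 200 mM and in ND 0 of the 8 were called by edgeR or DESeq2. At an unadjusted p under 0.05 there were 1, 2 and 2 of the 8 at 200, 250 and 300 mM and 0 in ND, where all tested genes gave 11%, 21.9%, 24.7% and 6.39%.

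Of the 10 tested zinc importer genes of the SLC39 family (14 listed), 0 were called in any comparison by edgeR or DESeq2, with 0, 2 and 1 at an unadjusted p under 0.05 at 200, 250 and 300 mM, 1 in ND and 2 between 300 and 200 mM. For all tested genes the shares were 11%, 21.9%, 24.7%, 6.39% and 9.3% in that order. Their median change was -0.06, 0.14 and 0.26 at 200, 250 and 300 mM and -0.15 in ND. Slc39a7, which encodes ZIP7, the importer that releases zinc from the endoplasmic reticulum, was the most abundant and stood at 141 ± 20.9 CPM at 300 mM and 156 ± 39.7 CPM in NS. Slc39a1, which encodes the plasma membrane importer ZIP1, stood at 113 ± 22.0 CPM at 300 mM and 60.1 ± 23.3 CPM in NS, a log2 change of 0.92 ± 0.34 (SE; edgeR adjusted p = 0.108). Without NS 3 the count of importers past the threshold was 1 at 200 mM and 2 at 250 mM and at 300 mM, where 1.54%, 14.6% and 15.4% of all genes passed.

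The list of MTF1 and its targets known from mouse (Mtf1, Slc30a1, Slc39a10, Sepw1, Csrp1, Ndrg1 and Gclc) had 7 tested members, of which 0 were called in any comparison by edgeR or DESeq2. At an unadjusted p under 0.05 there was 1 at 200 mM, 0 at 250 and 300 mM, 1 in ND and 0 between 300 and 200 mM, beside 11%, 21.9%, 24.7%, 6.39% and 9.3% of all tested genes. The median change was -0.21, -0.04 and 0.06 at 200, 250 and 300 mM and -0.09 in ND. The list holds the regulator beside its targets, and its members need not move in the same direction. The median is therefore no measure of MTF1 activity. Csrp1, which encodes a cytoskeletal LIM protein, was the most abundant, at 170 ± 99.7 CPM at 300 mM and 163 ± 68.8 CPM in NS. Ndrg1, a stress and hypoxia responsive gene, had the largest change of the list, 1.15 ± 0.47 (SE) in ND, with an adjusted p of 0.687. That rested in part on ND 2, at 153 CPM beside 41.7 and 61.3 CPM in ND 1 and ND 3.

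Of the 9 tested copper genes (11 listed, 10 in the tables), 1 fell at 300 mM, Slc31a1, which encodes the copper importer CTR1. It stood at 50.6, 44.7 and 39.6 CPM at 300 mM, against 76.9, 121 and 92.8 CPM in NS, with no overlap (log2 change -1.10 ± 0.28, SE; edgeR adjusted p = 0.0241). At 250 mM its change was -0.89 ± 0.27 (adjusted p = 0.0696) and at 200 mM -0.75 ± 0.27 (0.285). The 300 mM call was lost without any 1 of the 300 mM libraries or NS 2 (adjusted p from 0.0506 to 0.117). At 250 mM edgeR called 0 members and DESeq2 1, 2 had an unadjusted p under 0.05, where 21.9% of all tested genes did, and 4 passed in edgeR without NS 3, where 14.6% of all genes did.

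Of the 8 tested iron genes (10 listed), 1 fell at 250 mM and at 300 mM, Hmox1, which encodes haem oxygenase 1 and is an NRF2 target. It stood at 64.4, 59.5 and 76.0 CPM at 250 mM and 80.0, 53.9 and 35.9 CPM at 300 mM, against 165, 148 and 131 CPM in NS. The log2 change was -1.15 ± 0.30 (SE; edgeR adjusted p = 0.0413) at 250 mM and -1.37 ± 0.31 (0.0137) at 300 mM. The call at 250 mM was lost without any 1 library other than NS 3 (adjusted p from 0.0960 to 0.155), and that at 300 mM without NS 1 or replicate 2 or 3 at 300 mM (0.0508 to 0.0713). Over all tested genes, edgeR called 2.46% lower at 250 mM and 4.66% at 300 mM. DESeq2 called 1 of the 8 iron genes at each dose and 0 in ND. At an unadjusted p under 0.05 in edgeR there were 2, 1 and 1 of the 8 at 200, 250 and 300 mM and 0 in ND. All tested genes gave 11%, 21.9%, 24.7% and 6.39% in that order.

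Among the 13 tested heat and oxidative stress genes (14 listed, with Hmox1 in both lists), 1 rose at 200 mM, 2 rose and 2 fell at 250 mM, and 1 rose and 2 fell at 300 mM. DESeq2 called 4 members at each dose, where it called 161, 742 and 1031 of all genes at 200, 250 and 300 mM. In a fit of only the 2 groups 0 members passed at 200 mM, where 1 of all genes did. In edgeR 7, 6 and 7 members had an unadjusted p under 0.05 at 200, 250 and 300 mM, 0 in ND and 2 between 300 and 200 mM. For all tested genes the shares were 11%, 21.9%, 24.7%, 6.39% and 9.3% in that order. The members called by edgeR as higher were the heat shock genes Hspb1 and Hspa1b. Other heat shock genes of the list were not called. Hsph1 had log2 changes of 0.41, 0.56 and 0.85 at 200, 250 and 300 mM (edgeR adjusted p of 0.652, 0.245 and 0.0683). Dnajb1 went the other way, at -0.09, -0.30 and -0.11 (0.940, 0.488 and 0.825). Hspb1, a small heat shock protein gene, had 321 to 511 CPM at 200 mM, 595 to 726 at 250 mM and 646 to 754 at 300 mM, against 135 to 211 CPM in NS (log2 changes of 1.40, 2.02 and 2.13; edgeR adjusted p = 0.0122, 0.000377 and 0.000191). Hspa1b, an inducible Hsp70 gene, rose at 250 mM with 48 counts against 9 in NS (2.30 ± 0.64, SE; adjusted p = 0.0499). Its change was 3.46 without NS 3, and the call was lost with library totals in place of TMM (adjusted p = 0.0533). The Hspb1 call at 200 mM was lost without NS 1, NS 2 or replicate 3 at 200 mM (adjusted p from 0.0634 to 0.108), and the Hspa1b call without any 1 library other than NS 3 (0.0884 to 0.237).

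The members called by edgeR as lower were Hmox1 and Gclm, which encodes the modifier subunit of the enzyme that limits glutathione synthesis and is also an NRF2 target. Nqo1, another NRF2 target in the list, was not called and went the other way at 250 and 300 mM. Its log2 change was -0.55 ± 0.28 (SE) at 200 mM, 0.16 ± 0.27 at 250 mM and 0.49 ± 0.27 at 300 mM (edgeR adjusted p of 0.503, 0.764 and 0.274). Gclm stood at 74.4, 53.2 and 45.1 CPM at 250 mM and 75.6, 66.6 and 65.4 CPM at 300 mM, against 167, 105 and 160 CPM in NS. The log2 change was -1.31 ± 0.30 (SE; edgeR adjusted p = 0.0226) at 250 mM and -1.05 ± 0.30 (0.0401) at 300 mM. These calls were lost without NS 1 or replicate 2 or 3 at 250 mM (adjusted p from 0.0947 to 0.104) and without any 1 library other than NS 3 at 300 mM (0.0547 to 0.147). The replicate numbers were taken to pair the 200 mM and NS libraries by the check given with the methods. With the replicate as a block, Gclm (-1.16, adjusted p = 0.00951), Hmox1 (-1.26, 0.0101) and the thioredoxin reductase gene Txnrd1 (-0.87, 0.0236) fell at 200 mM beside the rise of Hspb1 (1.41, 0.000552), and the calls over all genes numbered 268 in place of 55.

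Of the 7 tested genes of the glucocorticoid response (8 listed), 0 were called in any comparison by edgeR or DESeq2, with 1, 2 and 0 at an unadjusted p under 0.05 at 200, 250 and 300 mM, 2 in ND and 0 between 300 and 200 mM. All tested genes gave 11%, 21.9%, 24.7%, 6.39% and 9.3% in that order. The most abundant were Klf9, at 350 ± 18.0 CPM at 300 mM and 402 ± 58.3 CPM in NS, and Fkbp5, an FK506-binding chaperone gene, at 143 ± 37.5 CPM at 300 mM and 107 ± 21.2 CPM in NS.

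**Figure D4:**
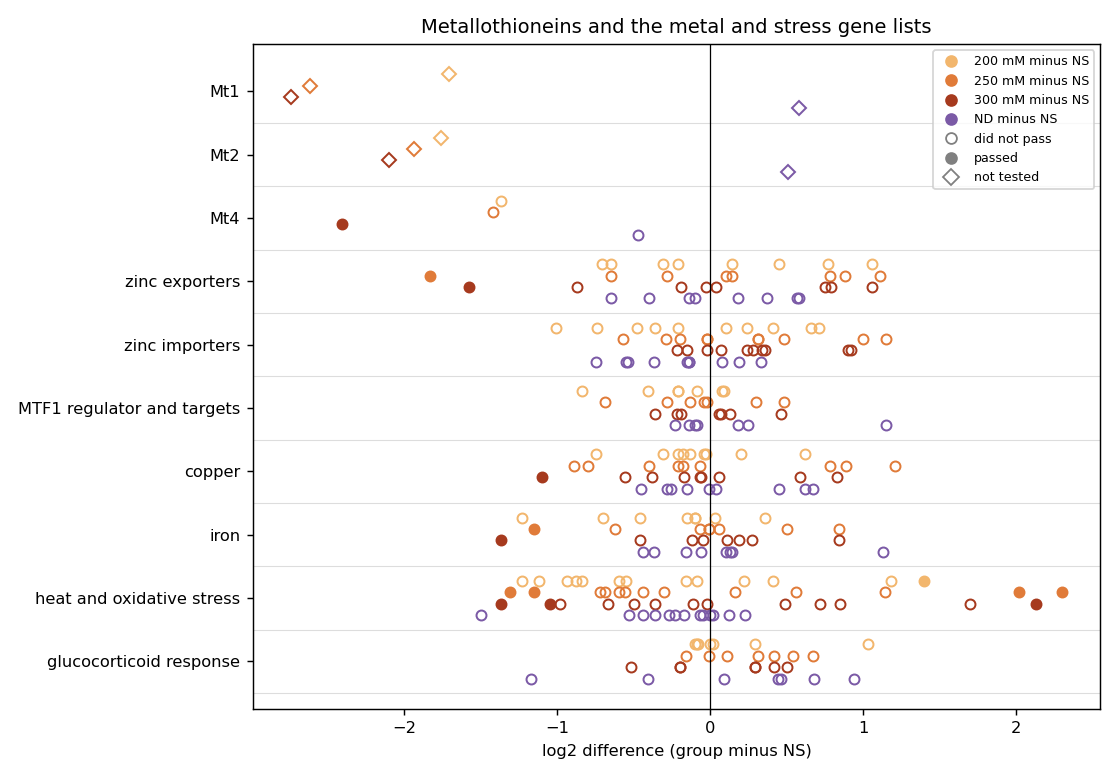
Log2 difference from NS (group minus NS) of Mt1, Mt2 and Mt4 and of each tested member of 7 gene lists, at 200, 250 and 300 mM and in ND. Filled circles passed an adjusted p of 0.05 in edgeR, open circles did not, and open diamonds (Mt1, Mt2) were not tested. Mt1 reaches -2.74 and Mt2 -2.10 at 300 mM, while the members of the MTF1 list lie between -0.84 and 1.15 in all 4 comparisons.

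Summed markers of trophoblast and of visceral and primitive endoderm were higher with sorbitol than in ND and NS. Those of fibroblasts were higher than in both at 200 mM, overlapped with ND alone at 250 mM and with both at 300 mM. The 7 trophoblast markers in the tables (8 listed) summed to 129 to 401 CPM at 200 mM, 311 to 449 at 250 mM, 257 to 386 at 300 mM, 59.7 to 112 in ND and 29.1 to 47.3 in NS. The keratin genes Krt18 and Krt8 had the highest means of the 7 at each dose. These were 170 and 51.3 CPM at 200 mM, 150 and 119 at 250 mM and 148 and 88.9 at 300 mM. The trophectoderm regulator Cdx2 had 1, 11 and 8 counts over 3 libraries each at 200, 250 and 300 mM. It was at 0 counts in ND and NS and was not tested. Of the 5 trophoblast markers tested, 3 rose at 200 mM, 5 at 250 mM and 4 at 300 mM. The 10 visceral and primitive endoderm markers summed to 34.8 to 62.7 CPM over the doses, 21.5 to 32.2 CPM in ND and 14.3 to 30.3 CPM in NS, with Apoa1 at 0 in ND and NS and Ttr at 0 at 200 and 250 mM and Apoa2 at 0 at 250 and 300 mM. Of the 3 tested, 1 rose at 250 mM and at 300 mM, Gata6, with means of 24.3 and 19 CPM against 3.31 CPM in NS. The other tested markers, Amn and Dab2, were not called. The list did not move together. Dab2 averaged 3.22 CPM at 200 mM and 7.88 CPM at 300 mM, against 5.49 CPM in NS. Rbp4, at few counts, averaged 0.643 CPM at 300 mM and 2.73 CPM in NS. The 8 fibroblast markers summed to 17.1 to 41.3 CPM at 200 mM, 14.3 to 26.2 at 250 mM and 8.29 to 33.2 at 300 mM. In ND they summed to 7.96 to 15.5 CPM and in NS to 8.92 to 12.9 CPM. Col3a1 and Lum were at 0 in every library, Dcn at 0 at 200 mM and Col1a2 at 0 at 250 mM. Only S100a4 of the 8 markers was tested. It had 3.68 to 32.9 CPM over the doses and 0 to 4.30 CPM in NS, and was not called. The 6 markers of undifferentiated stem cells, all detected in every group, summed to 987 to 2034 CPM over the doses, 910 to 1432 CPM in ND and 1064 to 1791 CPM in NS. The part of these cell types in the metallothionein levels was not tested.

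Mt1 and Mt2 followed each other over the 15 libraries, with a Pearson correlation of log2 CPM of 0.968, a description of points that share libraries and groups. With the mean of both, Mtf1 had a correlation of -0.196 and Slc30a1 of 0.118 over the same libraries. Of 6205 other tested genes with a mean of at least 20 CPM, 4 of the 5 genes of highest correlation were Hexa (0.955), Pdpn (0.953), Esrp1 (0.930) and Pvrl3 (0.929). Those of lowest correlation were Slc25a20 (-0.958), Ly6a (-0.950) and Pros1 (-0.942). All were picked by this correlation over the same libraries, so their levels by group largely follow from the choice.

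Hexa, which encodes a lysosomal hexosaminidase subunit, averaged 59.2, 43.2 and 42.7 CPM at 200, 250 and 300 mM, 121 CPM in ND and 120 CPM in NS. Pdpn, the membrane glycoprotein podoplanin, averaged 91.7, 57.9 and 63.1 CPM at the 3 doses, 209 CPM in ND and 163 CPM in NS. In the other direction, Slc25a20, the mitochondrial carnitine carrier gene, averaged 91.5, 104 and 96.6 CPM at the 3 doses, 32.3 CPM in ND and 35.4 CPM in NS. Ly6a averaged 98.3, 118 and 119 CPM at the 3 doses, 13.7 CPM in ND and 18.0 CPM in NS.

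**Figure D5:**
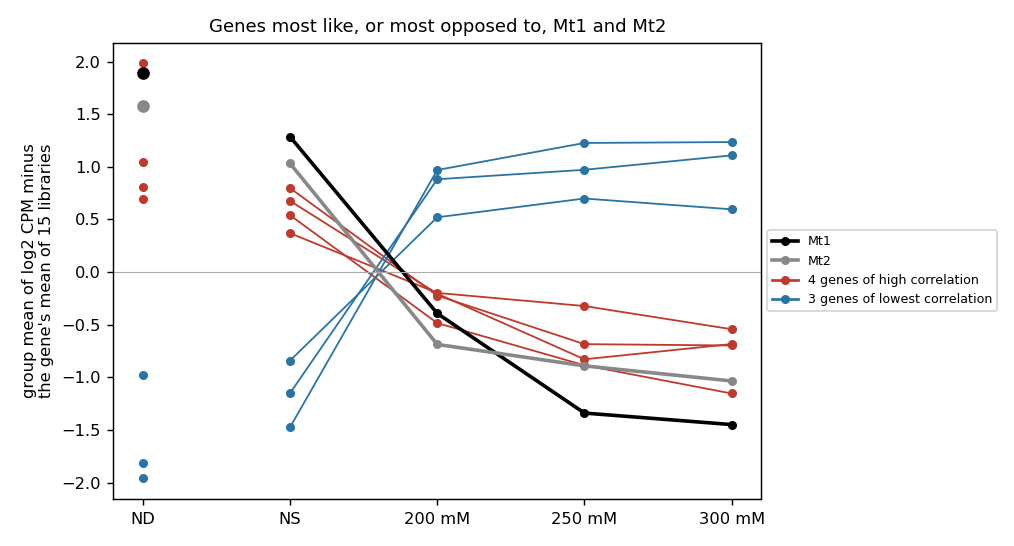
Group mean of log2 CPM (pseudocount 0.5) minus the gene's mean over all 15 libraries, for Mt1, Mt2, 4 of the 5 genes of highest and the 3 of lowest correlation with their mean. Lines join NS and the 3 doses, with ND as separate points. The 4 genes are lower and the 3 genes higher at every dose than in NS, which largely follows from their choice by this correlation.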

How the data were processed

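Expression was measured by 3' tag sequencing in 15 libraries. Per the submitters' processing notes, reads were base-called with CASAVA 1.8.2, aligned with STAR and counted with HTSeq on mm9, and the authors' tests used edgeR. For the annotation, strand setting and filters no source used here has a statement. Counts, as deposited, are whole numbers by symbol, and the 4 tables carry the same NS values. The authors' signal columns (group means of raw counts), their log2 columns, their score columns (signed fold change and likelihood ratio) and their p-value columns were not used further. Counts were joined on symbol and scaled with TMM factors. Tests used edgeR 4.0.16 (glmQLFit, glmQLFTest) in R 4.3.3, with filterByExpr (minimum count 10, minimum total 15), 1 coefficient per group, no block and Benjamini-Hochberg adjustment at 0.05 over 9390 genes. SE is the absolute change over the square root of F. P-values measure the spread between libraries described as biological triplicates. The fit was tested on simulated data.

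The members and lists were chosen with earlier results of these data known. The text names the 4 members, members of the metal, glucocorticoid and stress lists past the threshold in any comparison, the 2 most abundant members of lists with none, and 5 genes of highest and 3 of lowest correlation with Mt1 and Mt2 (log2 CPM, pseudocount 0.5), of which 1 of the 5 is not reported here. Mt3, Txnrd1, Nqo1, Hsph1, Dnajb1, the chromosomal neighbours and the cell type markers given by name were chosen after their values were seen. Alternatives were DESeq2 1.42.0, its size factors, library totals, no filter, fits of 2 groups, a replicate block and leaving out libraries. Deviations from group means correlated above 0.1 for all 3 same-numbered pairs of 200 mM and NS (0.689, 0.120 and 0.625). The number was therefore taken to pair these groups, though the main fit has no block. In each other comparison pairs 1 and 3 were above 0.1 and pair 2 below it, so there the number was not taken to pair. That limit does not show that those groups lack a shared replicate effect. Promoters came from RefSeq GRCm38.p6, another build than mm9, so only the windows' own coordinates are given. No column of sample values was left without a sample.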

Additional observations from a re-analysis of the deposited data

How the results depend on the processing

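Mt1 and Mt2 were lower at each sorbitol dose than in NS, and higher in ND, under every alternative run. Leaving out 1 library moved Mt1 to between -2.98 and -2.49 at 300 mM, -2.86 and -2.38 at 250 mM, -1.86 and -1.47 at 200 mM and 0.42 and 0.83 in ND (log2 difference from NS), and Mt2 to between -2.30 and -1.76, -2.12 and -1.60, -1.94 and -1.41, and 0.32 and 0.85 in the same order. For 300 against 200 mM the ranges were -1.27 to -0.90 for Mt1 and -0.54 to -0.19 for Mt2. Differences from NS moved by more than the replicate SD without NS 1, NS 2 and ND 2 together, an alternative chosen after seeing the data: to 0.28 (ND) and -2.10 (200 mM) for Mt1, and to -2.27, -2.46 and -2.60 at 200, 250 and 300 mM for Mt2. The lone NS library left is assumed to vary like the other groups.

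Genes called numbered 3 in ND, 55 at 200 mM, 420 at 250 mM and 741 at 300 mM against NS, and 2 at 300 against 200 mM, and these counts moved with the settings. With no filter they were 37 in ND, 161 at 200 mM, 825 at 250 mM and 58 for 300 against 200 mM, and with DESeq2 26, 161, 742 and 35. In fits of only the 2 groups they were 0 in ND, 1 at 200 mM, 462 at 300 mM and 0 for 300 against 200 mM, and with DESeq2 size factors in edgeR 1 in ND. Without NS 1, NS 2 and ND 2 they were 0 in ND, 4, 21 and 40 at 200, 250 and 300 mM and 1 for 300 against 200 mM. Leaving out 1 library gave 0 to 74 in ND, 12 to 150, 84 to 1413 and 210 to 1500 at 200, 250 and 300 mM, with the highest count without NS 3 in each, and 0 to 10 for 300 against 200 mM. The cause was not tested.

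With the replicate number as a block the counts were 40 in ND, 268 at 200 mM, 1683 at 250 mM, 1869 at 300 mM and 119 for 300 against 200 mM. Correlations of same-numbered deviations reached all pairs above 0.1 only for 200 mM and NS, and in the other comparisons the lowest pair was at 0.0701 (ND), -0.0786 (250 mM), -0.149 (300 mM) and 0.0782 (300 against 200 mM), so there the number was not taken to pair the libraries, although pairs 1 and 3 were above 0.1 in each and replicate 1 was the deepest library of every group. Mtf1 and Slc30a1 were not called under the block.

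Small changes of Mtf1 and Slc30a1 turned sign, with no call. Leaving out 1 library, Mtf1 ran from -0.11 to 0.36 in ND, -0.07 to 0.21 at 200 mM and -0.06 to 0.21 for 300 against 200 mM, and Slc30a1 from -0.69 to 0.60 in ND, -0.68 to 0.49 at 200 mM, -0.59 to 0.40 at 250 mM, -0.49 to 0.50 at 300 mM and -0.27 to 0.49 for 300 against 200 mM. Without NS 1, NS 2 and ND 2 together, Mtf1 was at -0.36 in ND, -0.17 at 200 mM and -0.10 at 300 mM. With 3 libraries a group, the intervals of Slc30a1 hold both falls and rises, so the lack of a call does not show that Slc30a1 was unchanged. The few counts of Mt3 and Mt4 limit what is said of them.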
